A study of Mus musculus with 9 samples.

Results

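The loci of 4 germ cell and pluripotency genes, Dppa3, Nanog, Sox2 and Tfap2c, were examined for T, TCF1 and SMAD1 signal in chromatin immunoprecipitation sequencing (ChIP-seq) of mouse cells. The members were fixed by position on the mouse genome build mm9: chr6:122540000-122610000 for Dppa3 (70 kb), chr6:122630000-122700000 for Nanog (70 kb), chr3:34500000-34600000 for Sox2 (100 kb) and chr2:172340000-172430000 for Tfap2c (90 kb). These regions held 69, 69, 99 and 89 windows of 2 kb, 326 of the 2654924 windows of the genome, and 325 of them had enough input to be used. In the T library 8 of the 325 windows (2.46%) reached a 2-fold enrichment, at Dppa3, Nanog and Sox2, where 0.475% of all tested windows did. That count moved between 5 and 18 under other settings at 2-fold, and 2 windows reached 3-fold. The share of all windows was not computed under those settings. The highest value, 4.55 at Dppa3, stood in a single sharp peak. SMAD1 at 12 h reached 2-fold in 2 windows (0.615%), both at Nanog, where 0.166% of all tested windows did. Neither TCF1 nor SMAD1 at 24 or 36 h did so at any of the 4 loci. Over all tested windows the share was 0.0992% for TCF1 and between 0.0347% and 0.0566% for SMAD1 at those times. At shares so low, a count of 0 in 325 windows says little. In the input library titled BVSC, a 23 kb segment of the Dppa3 locus was covered 13.4-fold more densely than in the BV input. The counting interval, 12.6 to 14.3, takes window counts as reads, which could not be shown for BVSC.

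Dppa3, also called Stella or PGC7, encodes a small nuclear protein of oocytes, early embryos and primordial germ cells that protects DNA methylation in the zygote, and its activation is a classic mark of the germ cell fate. Nanog and Sox2 encode transcription factors of the pluripotency network that germ cell precursors express anew. Tfap2c encodes the transcription factor AP2gamma, which acts with Blimp1 and Prdm14 in the specification of mouse germ cells. T (Brachyury) is the T-box transcription factor of the primitive streak and nascent mesoderm. SMAD1 is a signal transducer that enters the nucleus after BMP receptors phosphorylate it, and TCF1, the product of Tcf7, is a DNA-binding partner of beta-catenin in WNT signalling.

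The 9 libraries were all made from strain C57BL/6 and labelled as epiblast-like cells (EpiLC), which are embryonic stem cells taken towards the state of the early epiblast and can be induced to primordial germ cell-like cells. The BV line carries a Blimp1-mVenus reporter and the PV line a Prdm14-mVenus reporter. SMAD1 was immunoprecipitated from BV cells at 12, 24 and 36 h and from PV cells at 36 h, TCF1 from BV cells and T from PV cells. The labels give no time for T, TCF1 or the inputs, and they do not say which library was grown with BMP4 and WNT3A, the cytokines of the growth protocol, or whether cells were sorted. There was 1 input for PV and 1 for BV, and another input, titled BVSC, is labelled with the same Blimp1-mVenus genotype as BV. Each group was 1 library, so no value here has a replicate check and no test between groups could be made. Expression was not measured in these libraries, so the labelled cell type could not be checked against its markers.

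The immunoprecipitated libraries held between 14925074 reads (SMAD1 36 h in BV) and 43354004 reads (SMAD1 36 h in PV), and the inputs 42532115 (PV), 134657262 (BV) and 46750433 (BVSC). A typical 2 kb window therefore held between 11.8 and 34.2 reads in the immunoprecipitated libraries, and 33.5, 106 and 36.8 reads in the inputs PV, BV and BVSC. Counts were scaled so that the mean over autosomal windows was 1 in every library, and enrichment is the scaled count over the scaled input of the same line, with a pseudocount of 0.5 added to both. A plain ratio is the same quotient without the pseudocount, and the interval after it is the exact (Clopper-Pearson) 95% interval of the split of the 2 counts. It reflects the number of reads alone, and amplified reads can be copies of one molecule. Windows step by 1 kb, so neighbours share reads and a single peak usually raises 2 of them. T and SMAD1 36 h in PV share the PV input, and the 4 BV libraries share the BV input.

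The proximal promoters were read where RefSeq sequences of the build GRCm38.p6 were given, to show the regulatory DNA of 2 of the members and to look for the core letters that the immunoprecipitated factors are known to prefer. Of the 4 genes, Sox2 had 1 promoter entry and Nanog 2 overlapping ones, of which the first is shown. The 250 bases before the start of each gene are written 5′ to 3′ on the plus strand, with matches to a POU factor core (ATGCAAA) and a SOX factor core (ACAATG or ACAAAG) in capitals.
Sox2, GRCm38.p6 chr3:34649745-34649994: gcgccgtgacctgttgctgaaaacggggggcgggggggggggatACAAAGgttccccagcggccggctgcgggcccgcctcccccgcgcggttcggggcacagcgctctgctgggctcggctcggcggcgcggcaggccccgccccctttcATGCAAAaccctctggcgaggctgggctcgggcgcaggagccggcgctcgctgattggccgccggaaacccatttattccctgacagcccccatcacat
Nanog, GRCm38.p6 chr6:122707239-122707488: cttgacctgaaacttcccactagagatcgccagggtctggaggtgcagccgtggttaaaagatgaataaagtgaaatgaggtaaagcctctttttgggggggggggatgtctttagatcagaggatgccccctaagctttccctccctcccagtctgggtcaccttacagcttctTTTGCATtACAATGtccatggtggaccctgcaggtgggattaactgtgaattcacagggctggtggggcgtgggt
None of the motifs of the immunoprecipitated factors was found on either strand of these sequences: the T-box core AGGTGTGA occurs in 1.12% of 32851 promoter sequences of that length, the TCF core CTTTGAA or CTTTGAT in 7.48% and the SMAD1 GC element GGCGCC in 9.59%. The POU core occurs in 4.12% and the SOX core in 25.2% of them, and both were added to the search after the sequences had been read. In the Nanog promoter the POU match begins at base 176 and the SOX match at base 184, so they lie side by side, whereas in the Sox2 promoter they begin at bases 152 and 45. No motif overlaps another here, a match is a description of letters and not of occupancy, and because the read counts are on mm9 the windows that hold these promoters cannot be named.

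At Dppa3, T signal was concentrated in a peak near the right end of the locus. The window chr6:122605001-122607001 held 109 reads in the T library against 36 in the PV input, an enrichment of 4.55 (plain ratio 6.20, 4.22 to 9.30). The window 1 kb to its left held 120 reads against 45, an enrichment of 4.25 (plain ratio 5.46, 3.84 to 7.87). Both also passed the stricter rule of an enrichment and a scaled count of at least 4, which 0.0485% of all tested windows passed for T, and no other window of the 4 loci passed it in any library. For the other libraries that rule was passed by 0.00283% of all windows for TCF1, 0.00996% for SMAD1 12 h, 0.00464% for 24 h, 0.000887% for 36 h in BV and 0.00561% for 36 h in PV. An enrichment at least as high as at the Dppa3 peak was seen in 0.0350% of all windows, and 1.45% of the 27789 stretches of 70 kb that tile the genome held such a window.

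Because windows overlap, the T counts could be split into bins of 1 kb, and the Dppa3 peak then fell into 1 of them. The bin chr6:122605001-122606001 held 100 T reads against 22 in the PV input (plain ratio 9.30, 5.82 to 15.5), and SMAD1 36 h in the same PV cells had 24 reads there. The bins on either side held 20 and 9 T reads, against 23 and 14 in the input, so the high level did not extend beyond about 1 kb at this resolution. At the 2 windows that span the bin, T exceeded SMAD1 36 h in PV by 6.33-fold (4.31 to 9.50) and 5.34-fold (3.78 to 7.64). That contrast needs no input, but the windows were chosen on their T enrichment, which favours T.

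**Figure D1:**
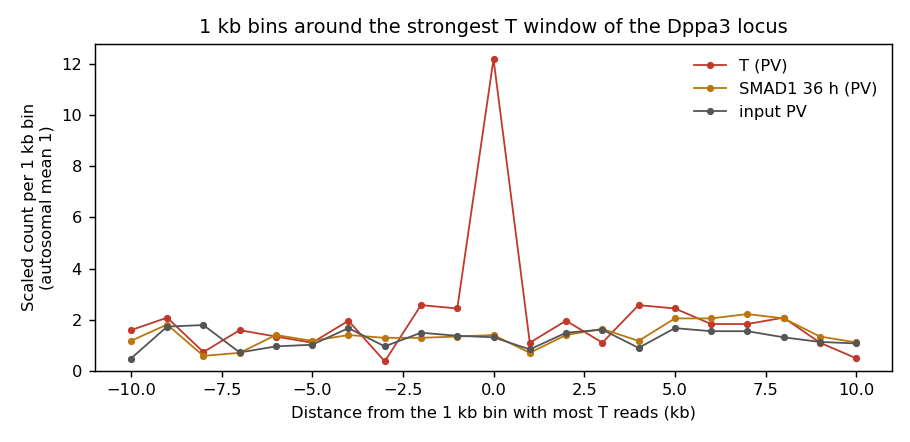
Scaled count per 1 kb bin (vertical axis, autosomal mean 1) against the distance in kb from the Dppa3 bin with most T reads (horizontal axis), for T, SMAD1 36 h and input of the PV line, 1 library each. T reaches 12.2 in 1 bin, where SMAD1 stands at 1.40 and the input at 1.31.

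The other factors showed no comparable peak at those windows. At chr6:122605001-122607001 the enrichment was 0.84 for TCF1, 1.05 for SMAD1 12 h, 1.12 for 24 h, 1.20 for 36 h in BV and 0.99 for 36 h in PV, and at the window to its left these libraries lay between 0.94 and 1.62. The strongest SMAD1 12 h window of the locus, chr6:122603001-122605001, ended where the T bin begins. It held 43 SMAD1 reads against 137 in the BV input, an enrichment of 1.95 (plain ratio 2.32, 1.61 to 3.29), and 0.206% of all windows were at least as high. Most of that came from the 1 kb bin just left of the T bin, with 27 SMAD1 12 h reads at a scaled count of 3.77, and T itself was at 1.55 in this window. SMAD1 was lower there at the later times, with 28 reads at 24 h (ratio to 12 h 0.509, 0.304 to 0.838) and 16 at 36 h in BV (0.453, 0.238 to 0.821), but the window was chosen on the 12 h counts, which favours that time.

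Over the Dppa3 locus as a whole, SMAD1 12 h reads stood at 1.24 (1.15 to 1.35) times the scaled BV input. The same ratio was 1.05 (0.973 to 1.14) at 24 h and 0.986 (0.894 to 1.08) at 36 h in BV. Set against each other, SMAD1 reads over the locus at 36 h were 0.792 (0.704 to 0.891) and at 24 h 0.846 (0.763 to 0.937) times those at 12 h. At the other 3 loci the ratio of 36 h to 12 h lay between 0.927 and 0.981. The ratio of 24 h to 12 h was 0.901 (0.828 to 0.980) at Sox2, also below 1, and 1.02 at Nanog and 1.05 at Tfap2c. In PV cells SMAD1 at 36 h was 1.22 (1.13 to 1.31) times its own input at Dppa3, and 1.23 (1.11 to 1.36) times SMAD1 36 h in BV. The ratio of PV to BV was also above 1 at Nanog (1.15, 1.04 to 1.27) and Tfap2c (1.13, 1.04 to 1.23). At Sox2 it was below 1 (0.917, 0.844 to 0.996). At Dppa3 the counting intervals over input separated 12 h from 24 h and 36 h in BV, and PV from BV at 36 h. Those of 24 h and 36 h in BV overlapped, as did those of 12 h in BV and 36 h in PV. Without replicates it cannot be told whether times and lines differ beyond the spread of single libraries. The strongest windows of TCF1 (1.42), SMAD1 24 h (1.5), 36 h in BV (1.55) and 36 h in PV (1.60) stayed below 2-fold, and 77.1% of stretches of 70 kb held a TCF1 window as high as the Dppa3 one.

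**Figure D2:**
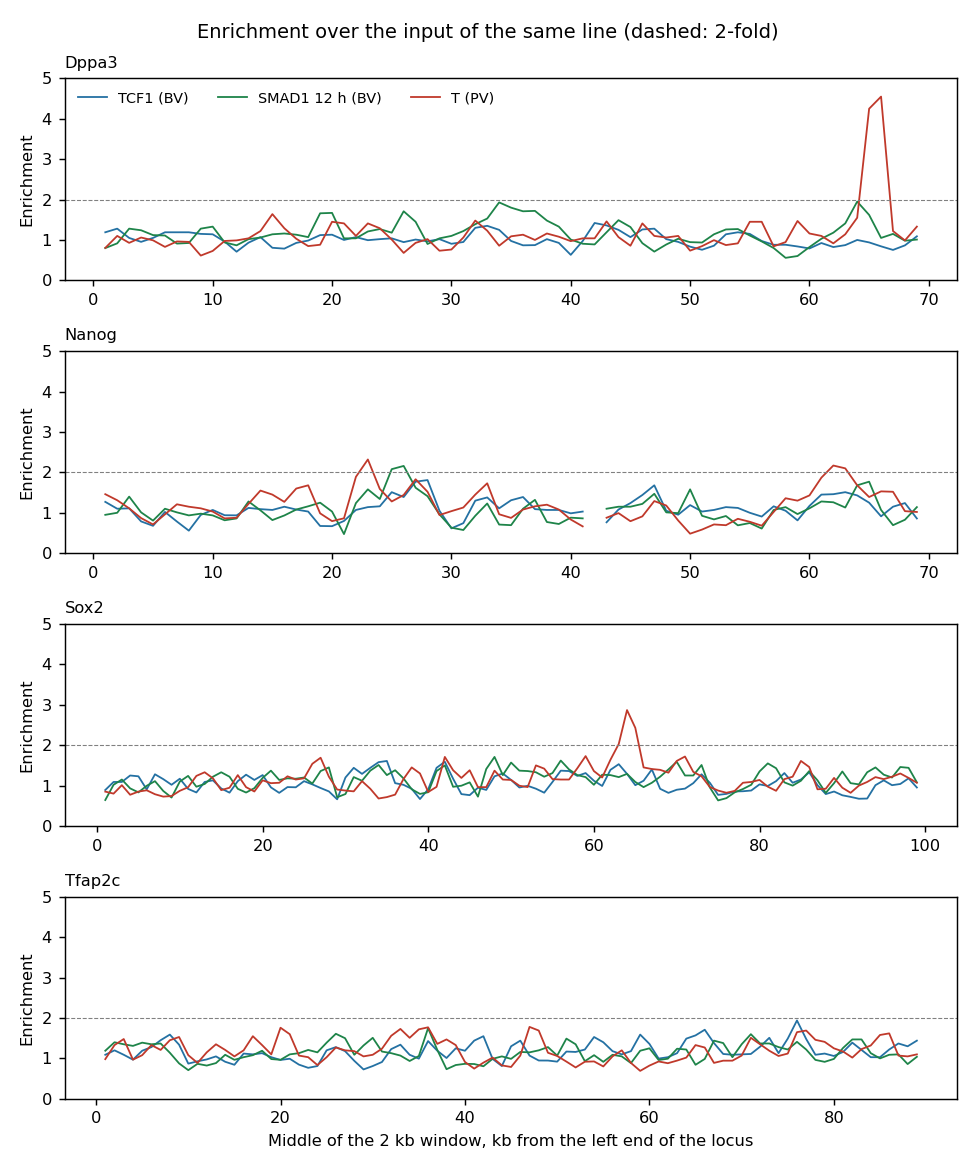
Enrichment over the input of the same line (vertical axis) in each 2 kb window along the 4 loci (horizontal axis, kb from the left end), for T, TCF1 and SMAD1 12 h, 1 library each; the dashed line marks 2-fold. The T line rises to 4.55 at Dppa3 and 2.87 at Sox2, and at Nanog T and SMAD1 12 h just cross the dashed line at 2.32 and 2.16.

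At Nanog, both T and SMAD1 12 h passed 2-fold, in different windows. For T 3 of 68 usable windows did so, in a genome where 0.475% of all windows reach 2-fold for T. The highest, chr6:122652001-122654001, held 63 reads against 46 in the PV input, an enrichment of 2.32 (plain ratio 2.80, 1.89 to 4.19). The other two, which overlap each other at chr6:122691001-122694001, were at 2.17 and 2.10. An enrichment of at least 2.32 occurred in 0.228% of all windows, and 9.54% of the stretches of 70 kb held one. At the highest T window, T exceeded SMAD1 36 h of the same cells by 1.76-fold (1.24 to 2.49). At chr6:122691001-122694001 that ratio was 1.72 (1.16 to 2.53) in the left window and 1.43 (0.978 to 2.08) in the right. All these windows were chosen on their T enrichment, which favours T in such ratios. The enrichments of the other libraries lay between 1.14 and 1.58 at the highest T window. At chr6:122691001-122694001 they lay between 1.06 and 1.55, so other libraries were also raised where T was. The Nanog count was 1 with a pseudocount of 1 or with the locus set to its own median, and 9 with a pseudocount of 0.1. The share of all windows was not computed under those settings. Measured against the BVSC input no Nanog window reached 2-fold for T, and that input was raised over the whole locus (1.49 times the BV input, 1.41 to 1.57).

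SMAD1 at 12 h reached 2-fold in 2 overlapping Nanog windows, where 0.166% of all windows do for this library. The window chr6:122655001-122657001 held 39 reads against 105 in the BV input, an enrichment of 2.16 (plain ratio 2.74, 1.85 to 4.00), and its left neighbour was at 2.08. In the same window the enrichment was 1.65 for SMAD1 24 h, 1.82 for 36 h in BV, 1.54 for 36 h in PV, 1.44 for T and 1.39 for TCF1. The 4 BV libraries share an input that was low here, at a scaled count of 0.992 against a median of 1.17 over the locus, and its part in these values was not tested. SMAD1 reads at 36 h in BV were 0.812 (0.475 to 1.37) times those at 12 h, and at 24 h 0.721 (0.445 to 1.16), so at this depth no change with time was detectable. No Nanog window reached 2-fold for SMAD1 12 h against the PV input, against the BVSC input or with a pseudocount of 1, and 6.82% of stretches of 70 kb held a SMAD1 12 h window at 2-fold or more.

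The strongest windows of the other libraries at Nanog stayed below 2-fold. TCF1 was highest at chr6:122657001-122659001, with 59 reads against 136, an enrichment of 1.81 (plain ratio 2.12, 1.54 to 2.90). SMAD1 24 h was highest at chr6:122654001-122656001 (1.79) and SMAD1 36 h in BV at the same window as SMAD1 12 h (1.82). SMAD1 36 h in PV was highest at chr6:122661001-122663001, with 59 reads against 23 in the PV input (1.87). For TCF1, SMAD1 24 h, SMAD1 36 h in BV and SMAD1 36 h in PV, 2-fold was reached by 0.0992%, 0.0347%, 0.0517% and 0.0566% of all windows. None of the 325 windows of the 4 loci reached it in these libraries. That count would allow a share of up to 0.923% if windows were independent. Neighbours share reads, so the limit is higher than this.

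At Sox2, T was the only factor to reach 2-fold, in 3 of 99 windows that follow one another. Over the genome 0.475% of windows reach that level for T, and 26.6% of stretches of 100 kb hold at least 1 of them. The central one, chr3:34563001-34565001, held 70 T reads against 39 in the PV input, an enrichment of 2.87 (plain ratio 3.67, 2.45 to 5.58). Its left neighbour was at 2.03 and its right neighbour at 2.43. Split into 1 kb bins, T reads were 28, 27 and 43 in the 3 bins from chr3:34562001 onwards, against 30, 17 and 22 in the input, so the raised stretch was broader and lower than the Dppa3 peak. In the central window T exceeded SMAD1 36 h of the same cells by 2.57-fold (1.78 to 3.71), but this window was chosen on its T enrichment, which favours T. The other libraries lay between 1.29 and 1.42 there, and an enrichment as high as the T value occurred in 0.118% of all windows and in 6.77% of stretches of 100 kb.

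SMAD1 and TCF1 had no window at 2-fold at Sox2, and between 1.99% and 9.38% of stretches of 100 kb held one in these libraries. Their strongest windows lay in different places. SMAD1 24 h had the highest of them, chr3:34535001-34537001, with 38 reads against 98, an enrichment of 1.80 (plain ratio 2.24, 1.5 to 3.28). SMAD1 12 h was at 1.58 as a plain ratio in that window (0.938 to 2.55) and SMAD1 36 h in BV at 0.643 (0.252 to 1.37). TCF1 was highest 1 kb to the left of it (1.61), SMAD1 12 h at chr3:34547001-34549001 (1.71) and SMAD1 36 h in BV at chr3:34555001-34557001 (1.74). In PV cells SMAD1 36 h had its lowest maximum of the 4 loci here, 1.53. Over the whole locus T reads were 1.19 (1.11 to 1.28) times the SMAD1 36 h reads of the same cells, while that ratio was 1.01, 1.06 and 0.998 at Dppa3, Nanog and Tfap2c.

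At Tfap2c no library reached 2-fold in any of the 89 windows. Over all windows 0.475% did for T and between 0.0347% and 0.166% for the other libraries. Most stretches of 90 kb held no such window: 24.3% held one for T and between 1.80% and 8.49% for the others. TCF1 came closest to 2-fold at Tfap2c, at chr2:172415001-172417001, with 64 reads against 136 in the BV input, an enrichment of 1.94 (plain ratio 2.30, 1.68 to 3.12). At least that value was found in 0.154% of all windows and 10.5% of stretches of 90 kb. In the same window T stood at a plain ratio of 1.90 (1.21 to 3.0), SMAD1 12 h at 1.57 (1.02 to 2.37) and SMAD1 36 h in BV at 0.661 (0.310 to 1.25). The strongest T window, chr2:172386001-172388001, held 35 reads against 33 (1.78), a level that 46.2% of stretches of 90 kb reached. SMAD1 24 h (1.54) and SMAD1 36 h in PV (1.80) were both highest at chr2:172388001-172390001, SMAD1 36 h in BV at chr2:172384001-172386001 (1.81) and SMAD1 12 h at chr2:172375001-172377001 (1.75).

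Tfap2c stood slightly above its input over the whole locus in all 6 libraries. Its reads were 1.24 (1.15 to 1.33) times the scaled input for T, 1.25 (1.18 to 1.32) for TCF1, 1.20 (1.12 to 1.29) for SMAD1 12 h, 1.26 (1.18 to 1.34) for 24 h, 1.17 (1.08 to 1.27) for 36 h in BV and 1.24 (1.17 to 1.32) for 36 h in PV. The 6 medians over its windows lay between 1.09 and 1.21, where the medians over all windows of the genome lay between 0.971 and 0.986. At Nanog the 6 whole-locus ratios ranged from 1.09 to 1.25 and at Sox2 from 1.04 to 1.23. For T the ratio was nearly the same at all 4 loci, between 1.23 and 1.25, although the strongest windows ranged from 1.78 to 4.55.

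**Figure D3:**
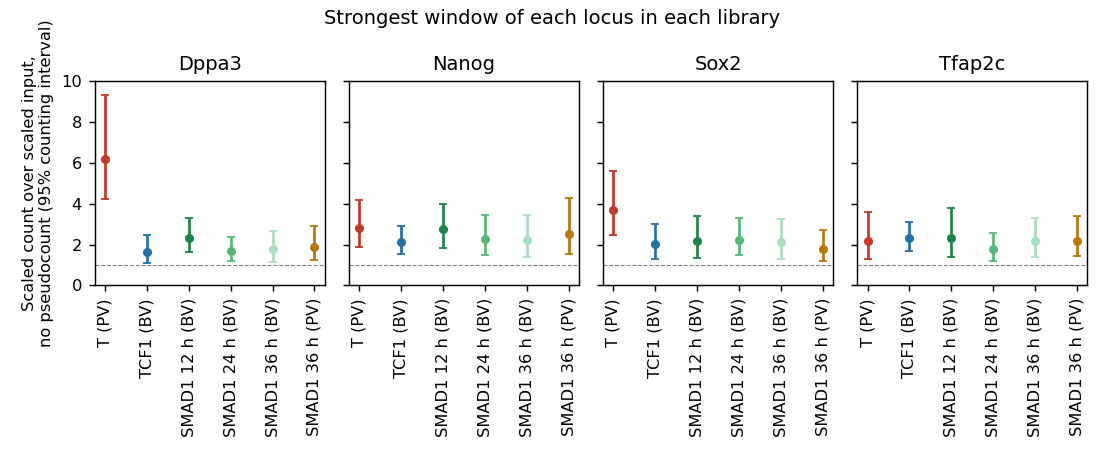
Plain ratio of scaled count to scaled input (vertical axis) in the strongest 2 kb window of each locus for each of the 6 immunoprecipitated libraries; bars are exact 95% counting intervals and the dashed line marks 1. The T point at Dppa3 (6.20) has an interval, 4.22 to 9.30, that lies above those of the other libraries there; at Tfap2c all 6 points lie between 1.77 and 2.32.

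The order of the loci by their strongest T window was Dppa3 (6.20 as a plain ratio), Sox2 (3.67), Nanog (2.80) and Tfap2c (2.17). The interval at Dppa3 (4.22 to 9.30) lay just above that at Nanog (1.89 to 4.19) and that at Tfap2c (1.31 to 3.60), and overlapped that at Sox2 (2.45 to 5.58). The intervals of Sox2, Nanog and Tfap2c overlapped one another. For SMAD1 12 h the order was Nanog (2.74), Dppa3 and Tfap2c (both 2.32) and Sox2 (2.15), with intervals that all overlapped. Each of these is the plain ratio at the window of highest enrichment in its locus, so another window can hold a slightly higher plain ratio, and the counting intervals do not allow for that choice.

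In the input titled BVSC, part of the Dppa3 locus was covered far more densely than its surroundings. The segment, taken as the run of windows at 2-fold or more over the BV input, spanned chr6:122559001-122582001, 23 kb and 22 windows. Over these windows the scaled count in BVSC had a median of 14.4 (range 2.34 to 19.6), against 1.07 in BV and 0.955 in PV. Summed over every other window, the segment held a count of 5647 in BVSC and 1209 in BV, a plain ratio of 13.4 (12.6 to 14.3). Against the 361 reads of PV the ratio was 14.2 (12.8 to 15.9). The window counts of BVSC could not be split into 1 kb bins, as described below, so its sum need not be a number of reads. The counting intervals of BVSC ratios are therefore approximate. With the pseudocount the median ratio to BV was 10.1. Both BV and PV inputs stood near 1, so of the 3 inputs BVSC alone held the excess.

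The edges of the segment were steep. Going right along the left edge, the BVSC count per window was 56, 238 and 484 in 3 successive windows from chr6:122558001, while BV held 126, 116 and 132. At the right edge it was 357, 86 and 58 from chr6:122579001, while BV held 132, 87 and 98. The 20 inner windows, chr6:122560001-122581001, were each at least 5-fold over BV, with a median scaled count of 15.1 and a plain ratio of 14.3 (13.4 to 15.2). Within them the level was uneven, between 9.24 and 19.6. The T peak at chr6:122605001-122607001 lies to the right of the segment, outside it.

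**Figure D4:**
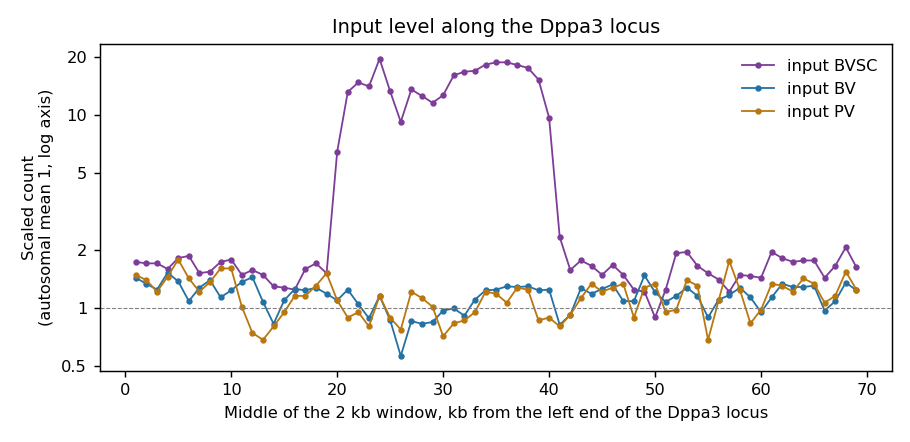
Scaled count per 2 kb window (vertical axis, log scale, autosomal mean 1) along the Dppa3 locus (horizontal axis, kb from its left end) in the 3 inputs, 1 library each. BVSC rises to between 9.24 and 19.6 over the 20 inner windows, while BV and PV keep a median near 1 there.

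Such a segment was rare in the BVSC input. Of all tested windows 0.0122% were at 2-fold or more over BV, 290 windows in 123 runs, and the 22 Dppa3 windows made up 7.59% of them. The count has no independent weight, because the segment was known when the locus was chosen for description. At 5-fold or more there were 22 windows in the genome, of which 20 lay in this segment, and it was the only run at that level with more than 1 window. No window of the Nanog, Sox2 or Tfap2c locus was at 2-fold or more.

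The surroundings of the segment were also above the genome's mean, at a much lower level. In the 50 kb on either side the BVSC median was 1.67 and 1.63, against 1.21 and 1.22 in BV, and the plain ratio to BV was 1.36 on both sides. This moderate excess covered the distal part of chromosome 6: in stretches of 10 Mb the median ratio of BVSC to BV was between 0.971 and 1.03 up to 90 Mb, 1.18 from 90 to 100 Mb and between 1.33 and 1.40 from 100 to 150 Mb. Dppa3 and Nanog both lie in that part (1.36 from 120 to 130 Mb). Around Sox2 and Tfap2c the ratio was 0.965 and 0.974, and over the loci themselves 0.950 (0.903 to 0.998) and 0.897 (0.850 to 0.947). Such steps were not particular to chromosome 6. Away from Sox2 on chromosome 3, the ratio was 1.66 and 1.65 from 60 to 80 Mb. It lay between 1.31 and 1.38 from 80 to 140 Mb, and at 0.650 and 0.629 from 140 to 160 Mb. The PV input showed no such step, with 1.00 times the BV level from 120 to 130 Mb of chromosome 6.

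The BVSC excess was not seen in the immunoprecipitated libraries. In the segment their median scaled counts were 1.13 for T, 1.06 for TCF1, 1.39 for SMAD1 12 h, 1.06 for 24 h, 1.15 for 36 h in BV and 1.39 for 36 h in PV. Set against BVSC they would appear depleted, with median enrichments between 0.102 and 0.140, so their own inputs were used throughout. SMAD1 12 h stood at 1.49 (1.29 to 1.71) times the BV input within the segment and at 1.15 (1.04 to 1.26) in the rest of the locus. SMAD1 36 h in PV showed a like difference, 1.5 (1.31 to 1.72) against 1.11 (1.02 to 1.21). SMAD1 36 h in BV went in the same direction, 1.15 (0.963 to 1.36) against 0.923 (0.819 to 1.04), with intervals that overlapped. For SMAD1 24 h the values were 1.07 and 1.04, for TCF1 1.01 and 1.03, and for T 1.12 and 1.27. The inputs were lower inside the segment than outside it, with medians of 1.07 and 1.24 in BV and of 0.955 and 1.25 in PV. The scaled SMAD1 counts themselves differed less, with medians of 1.39 and 1.26 at 12 h and of 1.39 and 1.32 at 36 h in PV.

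**Figure D5:**
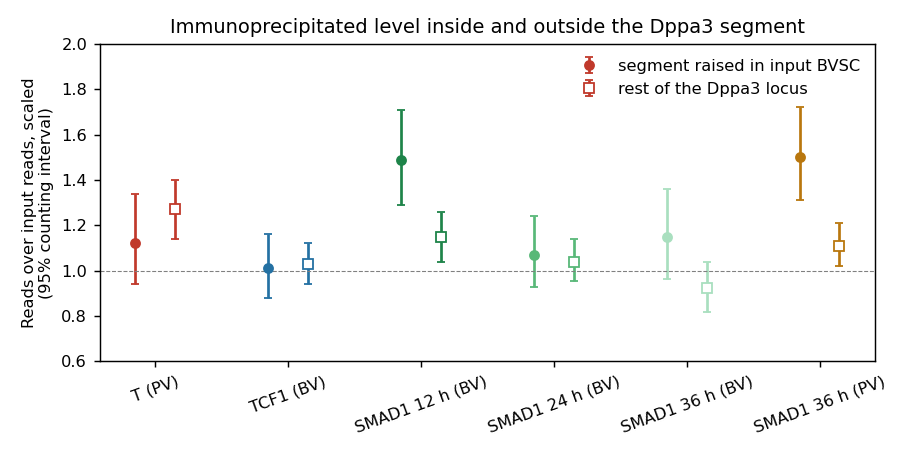
Ratio of scaled reads to scaled input reads of the same line (vertical axis, not starting at 0) in the segment raised in BVSC (filled circles) and in the rest of the Dppa3 locus (open squares), for the 6 immunoprecipitated libraries; bars are exact 95% counting intervals. SMAD1 12 h in BV (1.49) and SMAD1 36 h in PV (1.5) are higher inside the segment than outside it (1.15 and 1.11), and the intervals of the other 4 libraries overlap between the 2 parts.

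In the field, BVSC names a double reporter line that carries Blimp1-mVenus together with stella-ECFP, and RefSeq lists Stella as a synonym of Dppa3. The labels of this input give the Blimp1-mVenus genotype alone. Whether the segment is transgene DNA was not tested, and neither were junctions, copies or their position. In RefSeq's order of genes the coding neighbours of Dppa3 are Apobec1, Gdf3, Nanog and Slc2a3, but which of them the segment covers is not given here, because no annotation of mm9 was used. Read counts of BVSC could also not be split into 1 kb bins: 47.4% of its bins came out below 0, against at most 0.291% in the other 8 libraries. Its window counts thus did not behave as sums of such bins, for a reason that was not tested. The edges of the segment are known to a window at best.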

How the data were processed

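The authors deposited whole-number read counts in 2 kb windows that step by 1 kb, with no normalization, 1 table for each of the 9 libraries. Per the submitters' processing notes, Bowtie 0.12.8 and the build mm9 were used, and reads were single-end, 50 bp, from a SOLiD 5500xl, per the labels' protocols. How duplicates and reads with several placements were handled is not given in the sources used here. Coordinates are those the files write.

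From the counts, scaled values, enrichments and plain ratios were computed as described above (Python 3.11.15, numpy 2.4.6, scipy 1.17.1, pandas 2.3.3). Windows on autosomes and X with a scaled input of the same line of at least 0.25 were used. Depth was summed over every other window so that a read counts once, which could not be shown for BVSC. Stretches of a locus's length tiled the genome without overlap and needed 90% usable windows. Segments joined windows across gaps of up to 5. The calculation was tested on simulated data. With 1 library per group, comparisons are descriptions with counting intervals.

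The windows named are the strongest of each locus in each library and those past the stricter rule; the other windows at 2-fold or more, and the bins and edges of the segment, were named after their values were seen. The members, lists and rules were chosen with earlier results of these data known. No genome or annotation of mm9 was used here, so promoter windows, gene parts and a longer list of germ cell and pluripotency genes were not analysed here. Gene names, order and promoter sequences come from RefSeq tables of GRCm38.p6. The alternatives tried were other scalings, inputs, pseudocounts, filters, depths, local levels and thresholds.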

Additional observations from a re-analysis of the deposited data

How the results depend on the processing

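The number of T windows at 2-fold or more, 8 as reported, was 13 with the BVSC input, 5 with a pseudocount of 1, 18 with 0.1, 15 with all libraries thinned to equal depth, 5 with each locus set to its own median, and 2 at a threshold of 3-fold. By locus, with the 3-fold threshold included, the T count was 2 or 3 at Dppa3 under every alternative run. It was between 0 and 9 at Nanog, between 0 and 6 at Sox2 and between 0 and 5 at Tfap2c. For SMAD1 12 h, 2 windows as reported, the count was 1 with the BVSC input, 0 with the input of the other line, 0 with a pseudocount of 1, 9 with 0.1, 13 at equal depth and 0 at 3-fold. TCF1, at 0, had 3 windows with BVSC, 2 with a pseudocount of 0.1 and 6 at equal depth. SMAD1 24 h, at 0, had 4 with 0.1 and 7 at equal depth, SMAD1 36 h in BV 1 with BVSC, 4 with 0.1 and 5 at equal depth, and SMAD1 36 h in PV 5, 5 and 6 in that order. The share of all windows that pass was computed at the reported settings alone, so none stands beside the counts under alternatives. Whether those counts exceed such a share was not tested. Thinning the inputs to the shallowest library leaves fewer reads per window in each ratio. Otherwise the cause of the changes in count was not tested. The median BVSC level in the Dppa3 segment over BV, 10.1, was 7.86 with a pseudocount of 1 and 8.87 relative to the chromosome, and the length was 22 or 23 kb in all 6 alternatives. Of 168 enrichments at strongest windows under alternatives, 160 stayed within their counting interval, and 8 moved out of it, 6 of these with the BVSC input. With that input 3 values at Dppa3 fell below 1, TCF1 at 0.976 and, inside the raised segment, SMAD1 36 h in BV at 0.155 and in PV at 0.130. No paired analysis was possible because each group is 1 library. Mean counts of 11.8 to 34.2 reads per window limit the precision of every enrichment.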

Other observations

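Among the usable windows of the 4 loci, the lowest ratios of BVSC to BV lay at Tfap2c. The window chr2:172393001-172395001 held 18 BVSC reads, a scaled count of 0.489, where BV stood at 1.31 and PV at 1.49. Its ratio of BVSC to BV, 0.546 with the pseudocount, was reached or undercut by 0.0326% of all windows. A second window, chr2:172376001-172378001, held 13 BVSC reads (0.353 scaled) against 0.897 in BV and 0.985 in PV. In that window T stood at 2.38 over BVSC and at 1.36 over its own input, and SMAD1 36 h in PV at 2.03 and 1.16.

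Besides the Dppa3 segment, 2 runs of at least 10 windows were raised in BVSC over BV, both on chromosome 2. The longer spanned chr2:77707001-77791001, 84 kb, with a median ratio of 2.83, and the other chr2:77810001-77837001, 27 kb, with 2.74. Both were lower than the Dppa3 segment (10.1) and longer. Shorter runs lay between and just to the right of them. These were chr2:77799001-77803001 (median ratio 2.58), chr2:77842001-77851001 (2.81) and chr2:77857001-77865001 (2.47). The limit of 10 windows thus picks 2 runs from a cluster of neighbouring ones.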
